A study of Lens culinaris with 18 samples.

Results

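The 200 transcripts described here were abundant in the leaf of unstressed lentil seedlings and below a value of 2 in every root library, and they were followed in leaf under water deficit. They were chosen from 124151 assembled transcripts by their values alone. A transcript needed a value of at least 2 in all 4 leaf control libraries and below 2 in each of the 8 root libraries, which left 753 candidates. These were ranked by their mean over the leaf controls and the first 200 were kept. Values are TPM (reads per transcript length, scaled to a fixed total) multiplied by 1 factor per library, as deposited.

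The plants were wild-type seedlings of lentil (Lens culinaris), cultivar Sultan, aged 7 days when moved to aerated Hoagland's nutrient solution. Control plants stayed in that solution, and drought plants received it with 15% PEG 6000, a polymer that lowers the water potential around the root. Leaf and root were sampled at 24 h and 96 h, going by the labels, although the protocol puts the PEG exposure at 5 days. This gave 8 groups of 2 biological replicates, and 16 libraries were used of 18 samples in the series. The 2 unstressed stem samples were not analysed here, so leaf-restricted means restricted against root only.

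Leaves carry transcripts that roots lack because they hold the chloroplast-bearing mesophyll, the stomatal guard cells and a cuticle-forming epidermis. Under water deficit, plants close their stomata, and transcripts of photosynthesis and growth commonly decline while others tied to abscisic acid and osmotic protection rise. Which of these processes the 200 transcripts belong to is not known here. The table gives assembly identifiers of the Trinity type and pairs none of them with a gene name, so neither roles nor leaf marker genes could be checked, and sequences were not used here.

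Deposited totals were 514669 to 943452 in 13 libraries and 5832574 to 6997679 in the other 3, which are both leaf 96 h drought libraries and root 24 h control replicate 2. In these 3 libraries a pair of transcripts of 1 assembly component, neither of them among the 200, made up 76.3% to 92.4% of the total. That pair also took 23.3% of root 24 h control replicate 1 and at most 0.0991% of any other library. Read depth was unknown, so no counting interval or detection floor is given, and a value of 0 is reported as listed at 0. In the leaf 96 h drought libraries the smallest value above 0 that the table can hold is 0.0670 to 0.0700, against 0.00749 to 0.00943 in the other leaf libraries.

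The values that chose the 200 transcripts are given as a description. Their leaf control means ran from 18.6 to 1841, with a median of 35.1, and 34 of them had a mean of at least 100. Among all transcripts ordered by leaf control mean, the first of the 200 stood at place 53 and their median at place 3218, so the most abundant leaf transcripts are not among them. Abundant therefore describes the upper end of the list better than the list as a whole. The transcript ranked 200 had a leaf control mean of 18.6 and the next candidate, left out, had 18.4.

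In root, 4 of the 200 were listed at 0 in all 8 libraries. The highest root value of each transcript was under 0.5 for 72 of them, between 0.5 and 1 for 42, and between 1 and 2 for 86. Some of these highest values came from root 24 h control replicate 2, in which the pair held 92.4% of the total. The transcript ranked 9, for example, was at 1.98 there and at most at 0.738 in the other root libraries. When the rule was run without that library, 186 of the 200 were again among the 200 chosen. Just inside the root limit, 33 transcripts had a highest root value from 1.5 to 2 and a median leaf control mean of 36.8. Just outside it, 34 equally eligible transcripts had a highest root value from 2 to 2.5 and a median leaf control mean of 31.0. The limit of 2 therefore cut through a continuous range of root values.

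**Figure D1:**
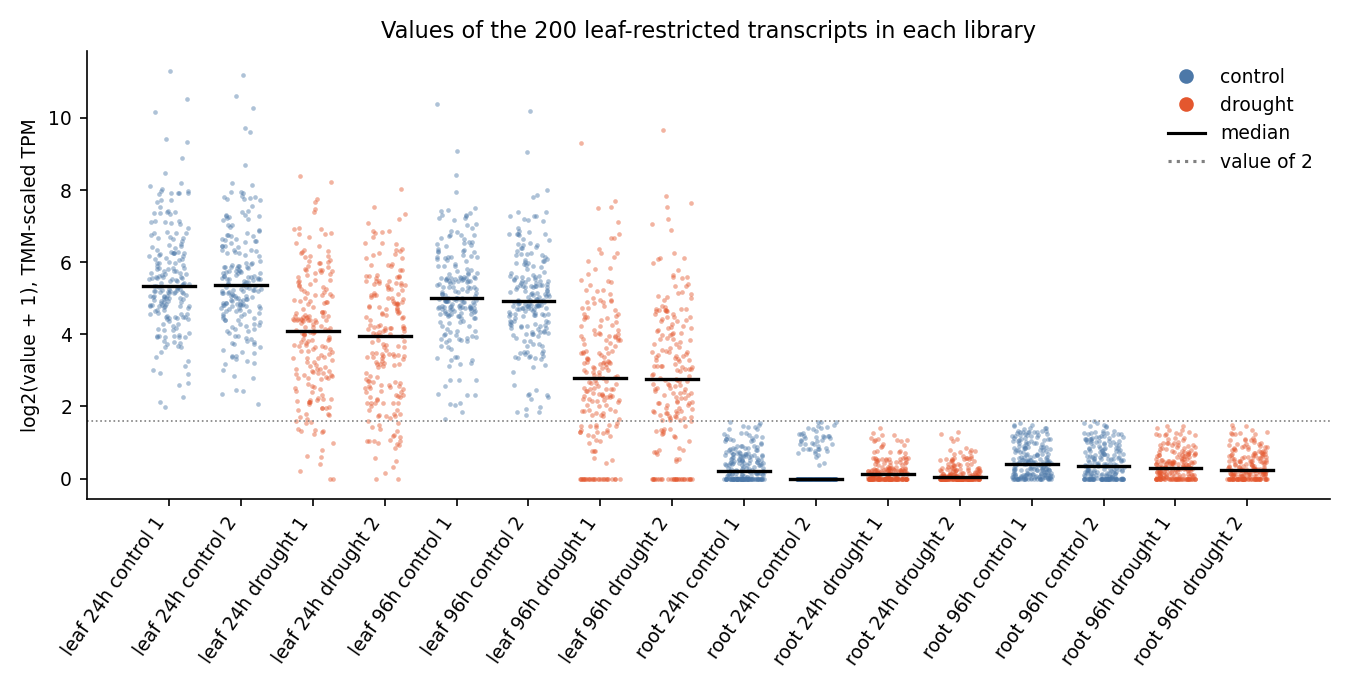
Each point is 1 of the 200 transcripts in 1 library, on the log2(value + 1) scale of TMM-scaled TPM; black bars are medians and the dotted line marks the value of 2 used by the rule. Leaf control medians lie between 29.4 and 40.7, leaf 24 h drought medians at 15.9 and 14.6, leaf 96 h drought medians at 5.98 and 5.76, and all root points below 2 by the rule.

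In leaf under PEG the 200 transcripts were lower at both times, and lowest at 96 h. The leaf controls chose the list for high values, which favours lower medians, shares and ranks in drought than in control. The comparisons with control that follow are therefore a description. The median transcript was at 39.9 and 40.7 in the 24 h controls and at 15.9 and 14.6 in 24 h drought. It was at 31.2 and 29.4 in the 96 h controls and at 5.98 and 5.76 in 96 h drought. In each pair of groups the drought medians lay below both control medians by far more than the replicates differed. In bulk tissue, fewer cells of a type and less RNA per cell cannot be told apart.

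The share of a library held by the 200 transcripts does not depend on the factor applied to that library. With the dominant pair left out of the total, they held 2.04% and 2.24% of the 24 h controls and 1.42% and 1.30% of the 96 h controls. In 24 h drought they held 0.818% and 0.662%, and in 96 h drought 0.288% and 0.251%. The 4 drought libraries were all below the 4 controls, and the 96 h drought libraries were below those of 24 h. With the pair kept in the total, the 96 h drought shares were 0.0543% and 0.0596%, since the pair fills most of those libraries.

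A few transcripts carried much of this sum. The 5 with the highest leaf control means made up 31.9% of the summed value in the 24 h controls and 20.8% in the 96 h controls. Without these 5, the others held 1.41% and 1.51% of the 24 h controls and 1.11% and 1.04% of the 96 h controls. They then held 0.743% and 0.613% in 24 h drought and 0.267% and 0.237% in 96 h drought, the same order of the groups.

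Ranks within a library, which no scaling changes, moved likewise. Here too the choice from leaf controls favours lower places in drought, and no comparison list is given. The median place of the 200 transcripts among all transcripts was 2828 and 2695 in the 24 h controls and 3600 and 3793 in the 96 h controls. It was 6357 and 6805 in 24 h drought, and 10976 and 11206 in 96 h drought. Of the 200, 155 were among the first 5000 transcripts in each 24 h control, and 75 and 77 were in 24 h drought. At 96 h, 148 and 136 were in the controls, and 47 and 52 in drought.

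**Figure D2:**
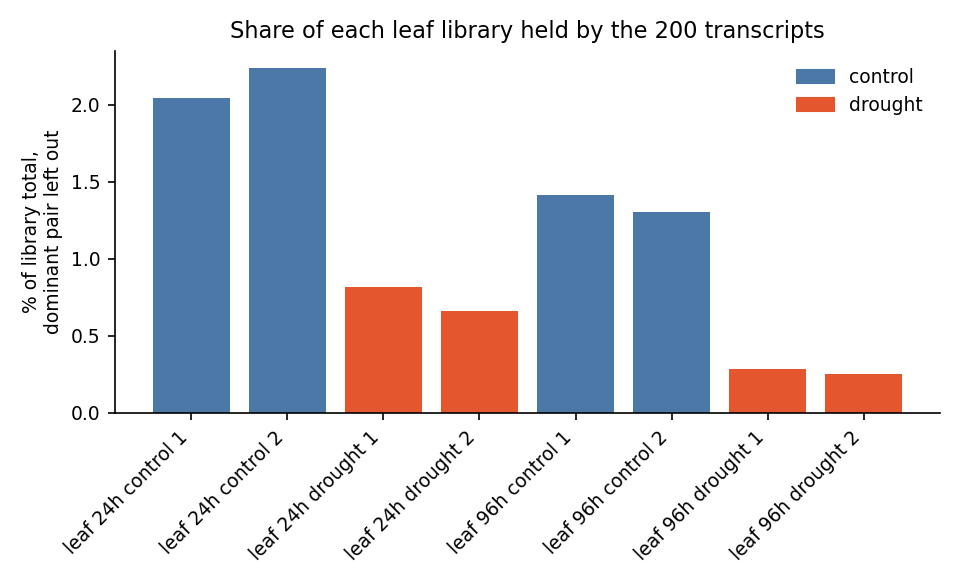
Bars give the percentage of each leaf library's summed value held by the 200 transcripts, with the dominant pair left out of the total; there is 1 bar per library, blue for control and orange for drought. The 4 control bars stand at 1.30% to 2.24%, the 24 h drought bars at 0.818% and 0.662%, and the 96 h drought bars at 0.288% and 0.251%.

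Single transcripts were tested with limma on log2(value + 1) across 28176 transcripts of the 8 leaf libraries, and a transcript rose or fell where the Benjamini-Hochberg adjusted p was under 0.05. All 200 were tested, since the rule itself requires values above the filter of at least 1 in at least 2 libraries. Judged on the drought libraries alone, 195 of them would have met that filter. The leaf controls chose these transcripts for being high, which favours falls from control to drought. Counts are therefore set beside transcripts chosen without the controls being compared.

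At 24 h of PEG, 136 of the 200 transcripts fell and 7 rose, where 15.9% of all tested transcripts fell and 11.2% rose. The fallen made up 68.0% of the list. Of the 136, 60 fell at least 4-fold on the log2(value + 1) scale, a size that 3.29% of all tested transcripts reached, and none of the 7 rose that far, where 1.8% of all tested transcripts did. The median log2 fold change was −1.55 over the list and −0.02 over all tested transcripts. When 200 transcripts were chosen by the same limits from the 96 h leaf controls alone, 124 fell and 7 rose at 24 h, with a median of −1.33. That list shares 162 transcripts with the first and was chosen by neither of the 24 h leaf control libraries.

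A further 4898 transcripts were at least as abundant in the leaf controls but at 2 or more in all 8 root libraries. Of these, 23.4% fell and 18.7% rose at 24 h, with a median log2 fold change of 0.00 to 2 decimals. The difference between the lists was not tested. Without leaf 24 h control replicate 1 the falls in the list of 200 numbered 88, and without replicate 2 they numbered 91. Falls over all tested transcripts then came to 8.60% and 8.54%. With both leaf 96 h drought libraries left out of the fit, an alternative chosen after seeing the data, 160 of the 200 fell and 11 rose. Of all tested transcripts, 25.0% then fell and 19.8% rose.

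At 96 h of PEG, 147 transcripts fell and 12 rose, where 42.2% of all tested transcripts fell and 16.9% rose. The fallen made up 73.5% of the list, and 106 fell at least 4-fold against 14.5% of all tested transcripts. The median log2 fold change was −2.24, against −0.59 over all tested transcripts and −0.83 over the transcripts as abundant in both organs. Of the latter, 58.9% fell and 15.7% rose. When the list was chosen from the 24 h leaf controls alone, 120 of 200 fell and 16 rose at 96 h, with a median of −1.59. That is 60.0% falls, beside the 58.9% among transcripts abundant in both organs, and the corresponding shares at 24 h were 62.0% and 23.4%. At least 4-fold, 73 of the 200 chosen from the 24 h controls fell, and 1085 of the 4898 did. The 4898 were chosen on all 4 leaf controls, which favours falls among them too. These differences between lists were not tested.

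The scaling of the 96 h drought libraries moved these values for every transcript. The median over all tested transcripts was −0.31 under median-ratio size factors and −1.07 once the dominant pair was left out. It was −1.99 under same-total scaling, in which every library, pair included, sums to 1000000. Relative to that median, the list lay 1.65 log2 units lower at the deposited scaling and differed by −1.57, −1.87 and −2.38 under the other scalings in that order. At 24 h the same relative values were −1.53, −1.53, −1.46 and −1.46.

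The comparison of 96 h drought with 24 h drought sets no control value against a drought value, and neither group chose the list, while the controls give part of the spread. Here 119 of the 200 transcripts were lower at 96 h and 15 higher, where 36.5% of all tested transcripts were lower and 14.7% higher. At least 4-fold lower were 44, a size reached by 8.78% of all tested transcripts, and 7 were at least 4-fold higher, against 5.12%. The median log2 difference was −1.08, against −0.46 over all tested transcripts. The scaling moved these sizes. At least 4-fold lower were 29 under median-ratio size factors, 83 without the pair and 157 under same-total scaling, where 6.10%, 18.6% and 47.3% of all tested transcripts were. With a pseudocount of 5 they were 13, against 1.87%. Set against the median of all tested transcripts, the list differed by −0.62 as deposited and by −0.49, −0.87 and −1.37 under the other scalings in the same order. Among the transcripts as abundant in both organs, 60.8% were lower and 12.0% higher, with a median of −0.85. The 59.5% of the list called lower were thus no larger a share than among abundant transcripts shared with root. At least 4-fold lower were 632 of those 4898, beside the 44 of the 200, a difference that was not tested. With spread taken from the 4 drought libraries alone, 71 were lower, where 22.0% of all tested transcripts were.

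**Figure D3:**
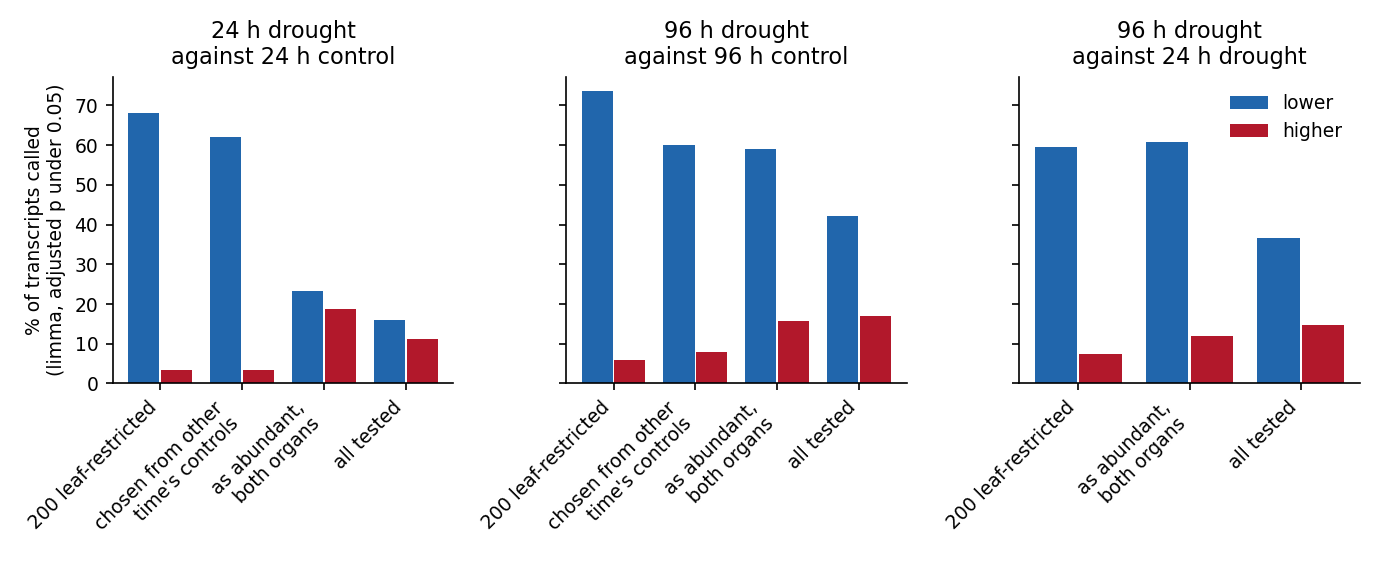
Bars give the percentage of transcripts lower (blue) or higher (red) by limma at adjusted p under 0.05 in 3 leaf comparisons, for the 200 transcripts, for 200 chosen from the controls of the other time, for 4898 as abundant in both organs and for all 28176 tested. At 24 h the list stands at 68.0% lower against 23.4% for abundant transcripts of both organs, and from 24 h to 96 h of drought the same lists stand at 59.5% and 60.8%.

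The controls themselves differed between the times, which bears on both drought comparisons. In 114 of the 200 transcripts both 96 h controls lay below both 24 h controls, and in 68 both lay above, leaving 18 with overlapping values. Over all tested transcripts 36.7% lay below and 37.4% above. These controls chose the list, so the values are a description. In 130 transcripts both 24 h drought libraries lay below all 4 leaf controls, where 23.9% of all tested transcripts did. In 161 both 96 h drought libraries did, where 44.5% of all tested transcripts did, and in 120 all 4 drought libraries did, where 17.6% did. Above all 4 controls in both libraries were 12 transcripts at 24 h, against 22.7% of all tested transcripts, and 8 at 96 h, against 17.1%.

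The 5 transcripts with the highest leaf control means are described next. That choice favours falls from control to drought, so their comparisons with control, tests included, are a description. The most abundant transcript was at 2519.5 and 2328 in the 24 h controls and at 1348 and 1171 in the 96 h controls. In 24 h drought it was at 297 and 183, and in 96 h drought at 181 and 118. Both drought groups lay far below every control, by 3.37 log2 units at 24 h (SE 0.29, limma adjusted p = 0.000824) and 3.10 at 96 h (SE 0.29, limma adjusted p = 0.000338). In root it was at 1.65 and 0.623 in the 96 h controls and listed at 0 in the other 6 libraries.

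The transcript ranked 2 was at 1469.8 and 1547 in the 24 h controls and 343 and 253 in the 96 h controls. It was at 111 and 68.6 in 24 h drought and 21.2 and 35.1 in 96 h drought. It fell at both times and was lower in 96 h than in 24 h drought (log2 difference −1.64, SE 0.32, limma adjusted p = 0.00747).

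The transcript ranked 3 differed in its controls, at 1149 and 1242 at 24 h and at 47.6 and 34.4 at 96 h. In drought it was at 87.3 and 89.2 at 24 h and at 25.3 and 39.9 at 96 h. It fell at 24 h (log2 fold change −3.74, SE 0.24, limma adjusted p = 0.000393), yet its 24 h drought values still lay above the 96 h controls. At 96 h drought and control overlapped, and the log2 fold change of −0.34 (SE 0.24) did not pass (limma adjusted p = 0.279). Its sign turned under median-ratio size factors, and it passed as a fall once the pair was left out.

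The transcript ranked 4 was at 642 and 838 in the 24 h controls and at 122 and 91.6 in the 96 h controls. It was at 15.2 and 21.2 in 24 h drought and 29.2 and 7.77 in 96 h drought. All drought values were below all control values, and it fell at both times (log2 fold change −5.28 and −2.71, limma adjusted p = 0.00173 and 0.00774).

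The transcript ranked 5 went the other way between the controls, from 251 and 225 at 24 h to 538 and 536 at 96 h. It was at 52.1 and 33.1 in 24 h drought and 20.4 and 18.0 in 96 h drought. That order of the controls was not seen in drought. Its 96 h drought values lay below those of 24 h (log2 difference −1.08, SE 0.21, limma adjusted p = 0.00738), a difference that did not pass under median-ratio size factors (−0.62, limma adjusted p = 0.0576).

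Falls were common at every level of abundance within the list. Over all tested transcripts 15.9% fell at 24 h and 42.2% at 96 h. The levels were cut by the leaf control means that also chose the list, which favours falls. At 24 h, 41 of the 50 transcripts ranked 1 to 50 fell, 34 of those ranked 51 to 100, 35 of those ranked 101 to 150, and 26 of those ranked 151 to 200. At 96 h the same groups held 39, 37, 38 and 33 falls. Their median log2 fold changes lay between −1.67 and −1.37 at 24 h and between −3.04 and −2.04 at 96 h.

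Taken by both times, 116 transcripts fell at 24 h and at 96 h, where 10.6% of all tested transcripts did. Their median log2 fold change was −1.77 at 24 h and −3.04 at 96 h. A further 16 fell at 24 h and did not pass at 96 h, as 4.4% of all tested transcripts did, and 27 fell at 96 h and did not pass at 24 h, as 28.8% did. None rose at both times, where 4.61% of all tested transcripts did, and 22 passed at neither time. Both calls set drought against the leaf controls that chose the list, which favours falls and disfavours rises. These counts are therefore a description. The response itself differed between the times for 111 of the 200 by the limma interaction. It was lower at 96 h for 80 and higher for 31, where 30.5% and 14.6% of all tested transcripts were lower and higher. Among the transcripts as abundant in both organs, 47.0% were lower and 12.1% higher. Of the 27 that passed at 96 h alone as falls, 20 had a lower response at 96 h, and of the 16 that passed at 24 h alone, 9 had a higher one. The remaining ones of both kinds were not shown to differ between the times.

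**Figure D4:**
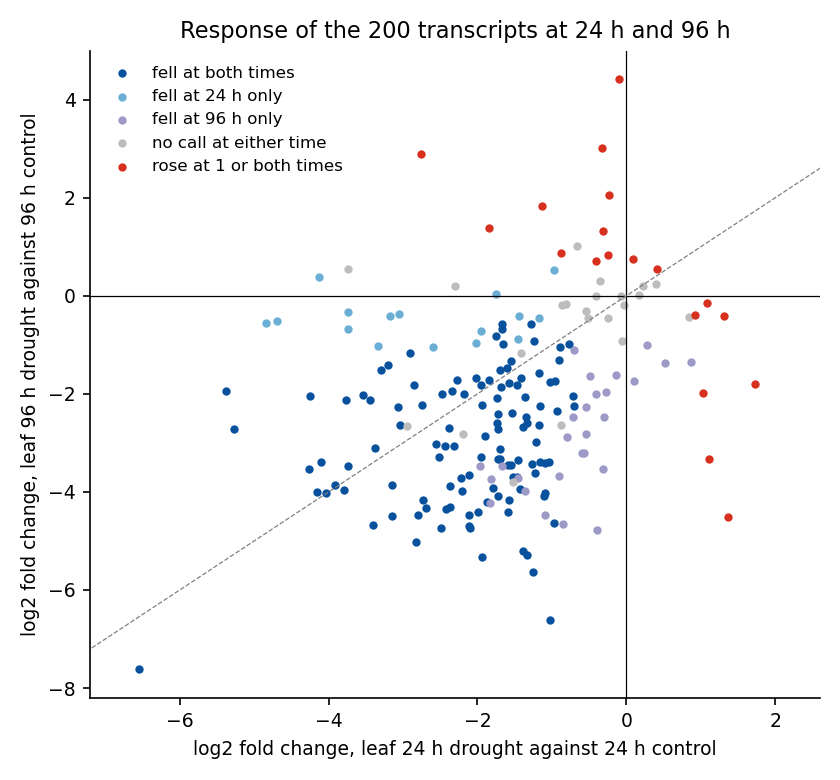
Each point is 1 of the 200 transcripts, with its log2 fold change in leaf at 24 h on the horizontal axis and at 96 h on the vertical axis; colours give the limma calls at adjusted p under 0.05 and the dashed line marks equal change. Most points, 116, fell at both times, 16 fell at 24 h alone as called, 27 at 96 h alone as called, and 19 rose at one of the times.

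Of the 7 transcripts that rose at 24 h, none rose at 96 h. At 96 h 4 of them fell against the 96 h controls, a sequence that 2.86% of all tested transcripts showed, and 3 did not pass. These transcripts were chosen for description after their values were seen. The one ranked 60 was at 35.2 and 30.9 in the 24 h controls and 108 and 116 in 24 h drought. It was at 78.3 and 88.3 in the 96 h controls and at 21.3 and 25.3 in 96 h drought, so drought lay above control at 24 h and below it at 96 h. Its response differed between the times by −3.53 log2 units (limma adjusted p = 0.000448). The one ranked 98 was at 14.4 and 13.7 in the 24 h controls and 43.2 and 33.1 in 24 h drought. It then stood at 53.8 and 59.7 in the 96 h controls against 2.66 and 0.737 in drought.

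Of the 12 that rose at 96 h, 4 had fallen at 24 h, as 0.901% of all tested transcripts did, and 8 had not passed. At 96 h 4 rose at least 4-fold, where 6.56% of all tested transcripts did. The transcript ranked 115, chosen after its values were seen, was at 38.3 and 56.4 in the 24 h controls and 9.80 and 3.55 in 24 h drought. At 96 h it was at 15.8 and 15.1 in control and 109 and 132 in drought. It fell at 24 h by 2.76 log2 units (limma adjusted p = 0.00562) and rose at 96 h by 2.88 (limma adjusted p = 0.00179). The direction at 96 h turned to −0.14 under same-total scaling. There 1 of the 200 rose at 96 h, and 5 did once the pair was left out, where 2.38% and 9.48% of all tested transcripts rose.

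The largest rises and falls whose direction held under median-ratio size factors and also without the pair were all at 96 h. TRINITY_DN40902_c0_g2, ranked 141, was at 46.4 and 42.1 in the 24 h controls and 44.2 and 38.5 in 24 h drought, which overlap. At 96 h it was at 9.29 and 9.13 in control and 206 and 228 in drought. It rose at 96 h by 4.42 log2 units (SE 0.11, limma adjusted p = 1.73e-05) and did not pass at 24 h (−0.10, SE 0.11, limma adjusted p = 0.606). In drought it was also higher at 96 h than at 24 h by 2.37 (limma adjusted p = 0.00014), a difference of −0.73 under same-total scaling.

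TRINITY_DN44699_c1_g1, ranked 48, was at 65.7 and 20.3 in the 24 h controls, far apart, and at 33.6 and 25.2 in 24 h drought. It was at 87.4 and 87.7 in the 96 h controls and at 628 and 805 in 96 h drought, the highest value of any of the 200 in those libraries. Its log2 fold change at 96 h was 3.01 (SE 0.51, limma adjusted p = 0.00346), but −0.09 under same-total scaling. Its highest root value, 2.00 to 3 significant digits, was just under the limit.

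TRINITY_DN42319_c1_g1, ranked 17, was at 110 and 86.5 in the 24 h controls and 170 and 222 in the 96 h controls. In drought it was listed at 0 in 24 h replicate 1 and both 96 h libraries and was at 0.121 in 24 h replicate 2. It fell at both times (limma adjusted p = 6.53e-05 at 24 h and 1.73e-05 at 96 h).

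TRINITY_DN41122_c0_g2, ranked 70, was low at 24 h, at 5.26 and 6.22 in control and 2.89 and 1.81 in drought. It was at 105 and 90.1 in the 96 h controls and listed at 0 in both 96 h drought libraries. It fell at 96 h (limma adjusted p = 2.49e-05) and at 24 h by 1.02 log2 units (SE 0.21, limma adjusted p = 0.0165). Its 96 h controls lay above its 24 h controls, an order not seen in drought.

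**Figure D5:**
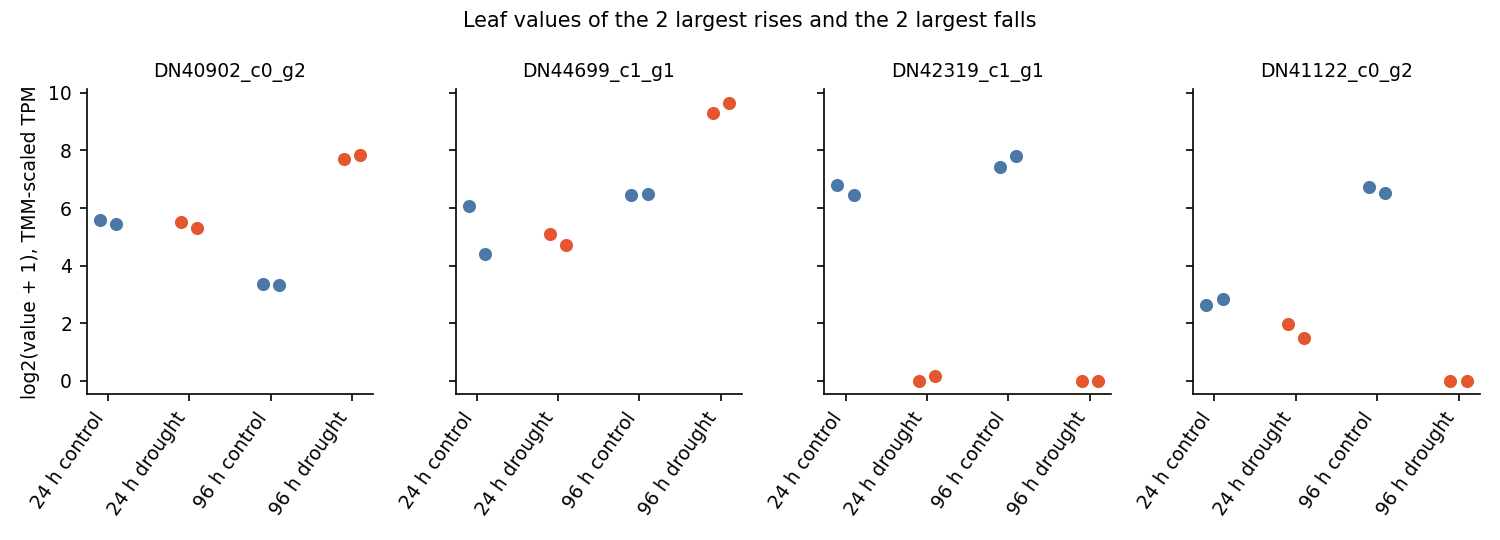
Points are single libraries (blue control, orange drought) of the 2 largest rises and the 2 largest falls among the 200 transcripts, on the log2(value + 1) scale of TMM-scaled TPM. The 96 h drought points of DN40902_c0_g2 and DN44699_c1_g1 stand at values of 206 to 805, and those of DN42319_c1_g1 and DN41122_c0_g2 are listed at 0.

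Some of the 200 were listed at 0 in drought. Listed at 0 in both 96 h drought libraries were 14 of the 200, against 20.9% of all tested transcripts, and in both 24 h drought libraries 0 of the 200, against 5.28%. These shares are not like for like. The 200 needed a value of at least 2 in all 4 leaf controls, and the tested transcripts only 1 or more in at least 2 libraries. The 14 had 96 h control means between 2.85 and 196, and 9 of them were at 2 or more in both 24 h drought libraries. These libraries listed far fewer transcripts above 0, 23194 and 23760 against 44724 to 49642 in the other leaf libraries, and the part of this in the zeros was not tested. Below 2 in both drought libraries were 13 of the 200 at 24 h and 32 at 96 h, while 125 kept a value of at least 2 in all 4 drought libraries. The list was chosen for abundance in control, which favours staying at 2 or more. No share over other transcripts is given for these counts, so they are only a description.

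Assembly components group transcripts built from overlapping reads, and reads can be split between their members. The 200 transcripts came from 192 components, of which 8 held 2 of them. In 7 of these 8 components both members had a negative log2 fold change at 24 h, and in 5 of 8 at 96 h, where 91.5% and 89.0% of all 200 were negative. In 1 component the members ranked 104 and 114 were both lower at 24 h (log2 fold change −3.74 and −4.13, limma adjusted p = 0.00188 and 8.95e-05). In another the members ranked 13 and 34 did not pass at 24 h and fell at 96 h (−1.64 and −2.47, limma adjusted p = 0.00249 and 0.000957).

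The same components held 187 other transcripts, of which 94 were tested in leaf and 48 of those were at 2 or more in at least 1 root library. At 24 h, 18 of these 48 fell and 5 rose, where 15.9% of all tested transcripts fell and 11.2% rose. Their median log2 fold change was −0.16. At 96 h 30 fell and 8 rose, with a median of −1.10, where 42.2% of all tested transcripts fell and 16.9% rose. Related transcripts also present in root had a smaller median change at 24 h than the −1.55 of the 200, a difference that was not tested. The 48 had only to pass the filter, while the 200 were chosen for high leaf controls, so these medians are not like for like.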

How the data were processed

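Polyadenylated RNA of leaf and root was sequenced as strand-marked, paired libraries, per the labels' protocols. The deposited table holds a signal per transcript that the authors labelled as TMM-scaled expression. The values are TPM kept to 2 decimals and then multiplied by 1 factor per library: every library had 100% of its values between 0 and 0.5 within 0.0006 of a multiple of that rounded step (1.71% to 23.3% by chance). Per the submitters' processing notes, the tools include edgeR, RSEM, Trimmomatic 0.35 and FastQC 0.11.5, listed without roles. Assembler, aligner and filters: not given in the sources used here.

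Columns were matched to samples by title. Group means of log2(value + 1) over the 8 leaf libraries were compared with limma 3.58.1 (R 4.3.3), using a robust eBayes with a mean trend. Adjustment was by Benjamini-Hochberg at 0.05, over transcripts at 1 or more in at least 2 libraries. This scale understates changes of low transcripts. The groups share 1 estimate of spread, so a p-value reflects only how far these samples vary. The pipeline was tested on simulated data. Identifiers are printed for the 2 largest rises and 2 largest falls over both drought comparisons, with adjusted p under 0.05, no overlap between drought and control, the higher group averaging 10 or more, and the same direction under median-ratio size factors and also without the dominant pair. Other transcripts are called by rank in leaf control mean. The members, lists and tests were chosen with earlier results of these data known. Alternatives were other pseudocounts, filters, scalings, models, choices of members and left-out libraries.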

Additional observations from a re-analysis of the deposited data

Results flagged for a closer look

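The response to PEG was compared between 24 h and 96 h by the limma interaction, and differed at adjusted p under 0.05 for 80 transcripts that responded lower at 96 h and 31 that responded higher. Over all tested transcripts 30.5% responded lower and 14.6% higher, and among those as abundant in both organs 47.0% and 12.1%. All 4 transcripts printed by identifier were among them. They were picked for large changes, all at 96 h, which enter the interaction, so the pick itself favours such a call. The difference, 96 h response minus 24 h response, was 4.51 log2 units for TRINITY_DN40902_c0_g2 (SE 0.16, limma adjusted p = 0.000347) and 3.33 for TRINITY_DN44699_c1_g1 (SE 0.72, limma adjusted p = 0.0135). The fitted difference was −5.59 for TRINITY_DN41122_c0_g2 (SE 0.30, limma adjusted p = 0.000455) and −1.07 for TRINITY_DN42319_c1_g1 (SE 0.28, limma adjusted p = 0.0242). The calls of TRINITY_DN44699_c1_g1 and TRINITY_DN42319_c1_g1 were lost when some single libraries were left out, with limma adjusted p up to 0.058 and 0.0905, and that of TRINITY_DN44699_c1_g1 also under same-total scaling (0.04 log2 units, limma adjusted p = 0.962). TRINITY_DN42319_c1_g1 lost it with a pseudocount of 0.1 and without a filter (limma adjusted p = 0.0862 and 0.068). Both negative values rest on libraries listed at 0, so their size depends on the pseudocount and is not a fold.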

How the results depend on the processing

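The falls at 24 h and 96 h stayed within 1.5 times their counts under every alternative run except the loss of leaf 24 h control replicate 1. With single leaf libraries left out, falls ranged from 88 to 159 at 24 h and 135 to 160 at 96 h, and rises from 3 to 11 and 7 to 14. Transcripts lower in 96 h than in 24 h drought ranged from 94 to 133, and higher ones from 11 to 21. Lower responses at 96 h ranged from 54 to 97, and higher ones from 23 to 45. Each of these fits left 1 library in a group, and the shares called over all tested transcripts moved as well. These ranges are therefore a description and not a property of the list alone. The list's median log2 fold change lay between −1.68 and −1.44 at 24 h, and that of all tested transcripts between −0.027 and −0.003. At 96 h they lay between −2.29 and −2.16 and between −0.61 and −0.57. Other counts moved further. With the pair removed, 11 rose at 24 h, 5 rose at 96 h, and responses were lower at 96 h for 123 and higher for 17, where 14.8%, 9.48%, 49.8% and 7.99% of all tested transcripts did. Under same-total scaling, 12 rose at 24 h and 1 at 96 h, 187 were lower and 1 higher in 96 h than in 24 h drought, and responses were lower for 168 and higher for 9, where 23.2%, 2.38%, 76.0%, 1.16%, 75.8% and 4.00% of all tested transcripts did. This scaling reversed TRINITY_DN44699_c1_g1 at 96 h (−0.086, limma adjusted p = 0.896) and TRINITY_DN40902_c0_g2 between the drought times (−0.73, limma adjusted p = 0.00204). Since the pair counts toward the total there, everything else in the 96 h drought libraries is lowered by construction. With median-ratio size factors 28 were higher in 96 h than in 24 h drought (20.6% of all tested). With spread from the 4 compared libraries 71 were lower (22.0%). With a root limit of 1, which kept 114 of the 200, 22 rose at 96 h (16.9%). Without both leaf 96 h drought libraries, 11 rose at 24 h (19.8%). For the other moves the cause was not tested. Same-numbered libraries did not deviate together (Pearson r across transcripts −0.03 at 24 h and −0.00423 at 96 h). The labels do not state that the numbers pair samples, and this correlation cannot exclude a pairing. With the replicate block 132 fell and 6 rose at 24 h, where 13.8% and 9.34% of all tested transcripts did. At 96 h 146 fell and 13 rose with it, where 41.0% and 16.3% did.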
